A study of Homo sapiens with 12 samples.

Results

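The death receptors of the TNF receptor superfamily and the proteins that bind them inside the cell were examined in RNA sequencing of esophageal squamous cell carcinoma cells. The set was named by function and held 9 genes: the receptors TNFRSF1A, TNFRSF10A, TNFRSF10B and FAS, the decoy receptors TNFRSF10C and TNFRSF10D, the adaptors TRADD and RIPK1, and the caspase-8 regulator CFLAR. All 9 were found among the 38516 genes of the deposited table. The libraries came from KYSE150 and KYSE510, 2 established human lines of this carcinoma, each as control cells and as cells with the long non-coding RNA gene HCP5 silenced, with 3 libraries in each of the 4 groups. All groups shared the medium, RPMI-1640 with fetal bovine serum. In both lines the titles begin with shc for controls and with sh4 for silenced libraries, and the labels do not explain these prefixes. With 1 prefix for all silenced libraries, other effects of the reagent cannot be told apart from silencing. The labels do not describe the control reagent, the silencing reagent or whether the silenced cells were 1 clone. Nothing says that replicates were separate cultures, so p-values measure the spread between these libraries only.

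A death receptor carries a death domain in its cytoplasmic tail. FAS, and the TRAIL receptors TNFRSF10A (DR4) and TNFRSF10B (DR5), recruit the adaptor FADD through this domain, and FADD recruits the initiator caspase-8. The TNF receptor TNFRSF1A recruits TRADD and RIPK1 instead, and that complex first signals to NF-kappaB and survival. CFLAR encodes c-FLIP, a relative of caspase-8 that competes for a place beside FADD. TNFRSF10C and TNFRSF10D bind TRAIL without a complete death domain.

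Reads assigned to genes ran from 20035025 to 28202422 per library, and every silenced library of KYSE150 was deeper than its controls. In all 6 same-numbered pairs the silenced library held less HCP5: 0.745 to 0.786 RPKM (reads per kilobase of exon, scaled to the reads assigned in a library) in KYSE150 controls against 0.315 to 0.579 after silencing, and 0.914 to 1.85 against 0.505 to 0.951 in KYSE510. With limma it did not pass the threshold in either line (adjusted p 0.267 and 0.646), and its mean change over lines, -0.49, passed with replicate numbers as a block (0.185 without the block, 0.0295 with it). All 7 squamous epithelial markers were present, with summed RPKM from 1020 to 2648 over the libraries. Markers of endothelium and fibroblasts were at most 2.09 RPKM in sum. Of the leukocyte markers CD68, which lysosomes of many cells hold, made up nearly all the signal, and PTPRC averaged at most 0.00299 RPKM in a group.

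Levels were compared on the RPKM scale, which is per base of exon. In KYSE150 controls TNFRSF10A was the highest of the 9 genes at 16.6 ± 1.41 RPKM (SD, n = 3), followed by RIPK1 at 9.69 ± 0.133 and TNFRSF10B at 7.32 ± 1.36. TNFRSF1A was next at 5.74 ± 0.907 RPKM, and its range overlapped that of TNFRSF10B. TRADD (2.62 ± 0.827), TNFRSF10D (2.44 ± 0.380) and FAS (2.34 ± 0.231) formed a group whose neighbours overlapped. CFLAR (0.382 ± 0.0383 RPKM) and TNFRSF10C (0.0601 ± 0.0204) lay below them without overlap.

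In KYSE510 controls the order differed at the top. TNFRSF1A was first at 12.9 ± 1.33 RPKM, RIPK1 was second at 10.4 ± 0.137 and TNFRSF10A came next at 8.48 ± 2.01, with the ranges of RIPK1 and TNFRSF10A overlapping. TNFRSF10B followed at 6.11 ± 0.949, then TNFRSF10D (3.09 ± 0.149), TRADD (2.61 ± 0.627), FAS (1.63 ± 0.228), CFLAR (1.05 ± 0.122) and TNFRSF10C (0.0782 ± 0.0601) (SD, n = 3 throughout). The ranges of TNFRSF10A and TNFRSF10B overlapped, as did those of TNFRSF10D and TRADD. TNFRSF10C rested on 1 to 9 reads per library, near the level of 3 reads, so no change could be detected in it at this depth. It did not reach the minimum for testing, an RPKM of 0.5 in 3 libraries, and the other 8 genes did.

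The level of CFLAR on this scale depends on its annotation. Its exons in the deposited table sum to 22529 bases, 1.54 times its longest coding transcript in GENCODE release 29, and the ratio was between 1 and 1.80 for the other members. Its coding transcripts there run from 435 to 14672 bases, so RPKM over all exon bases may understate CFLAR where shorter ones are expressed. CFLAR was counted with 159 to 734 reads per library, against 83 to 258 for FAS.

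**Figure D1:**
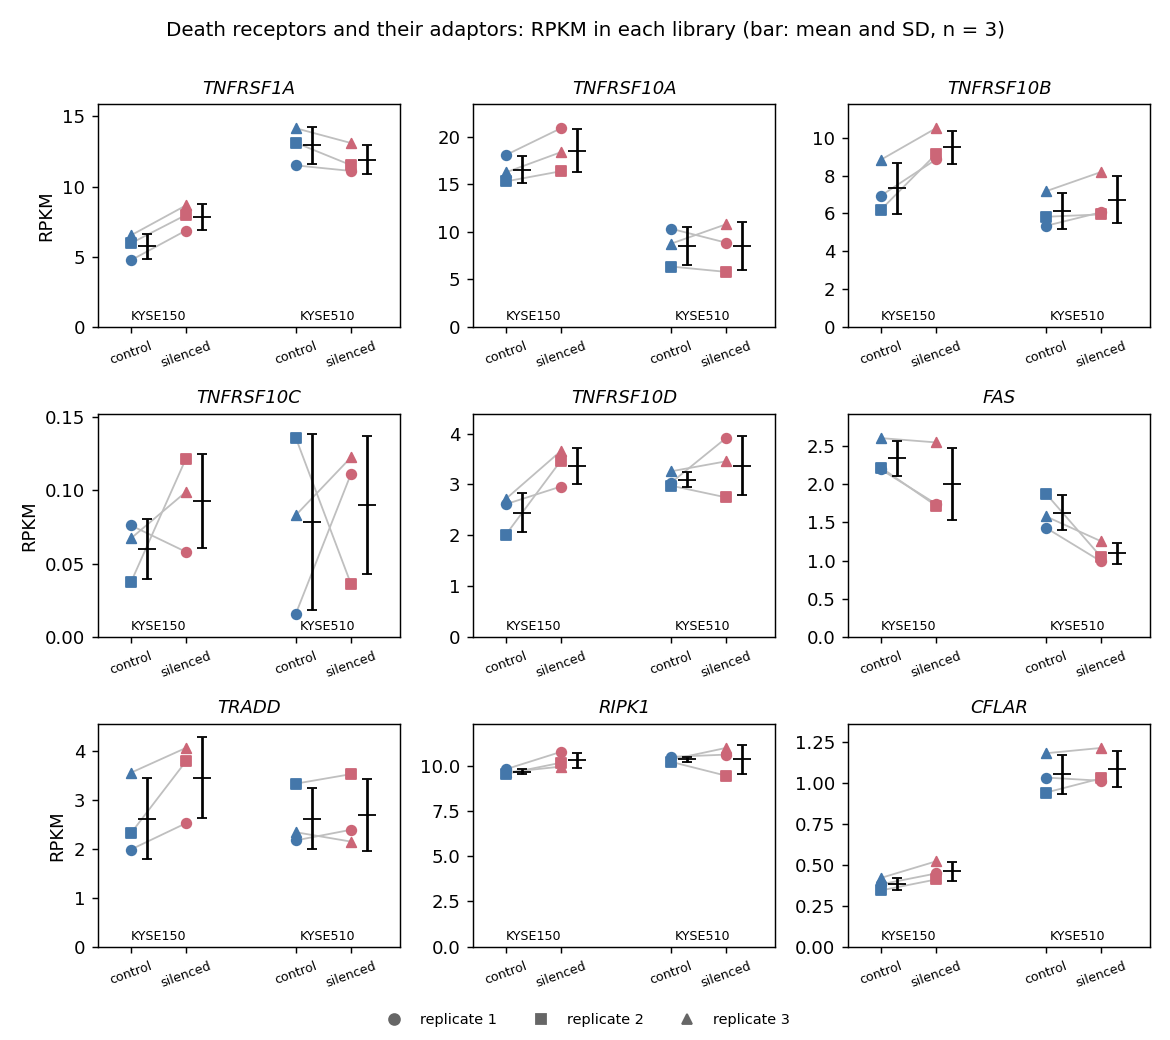
RPKM of each of the 9 genes in the 12 libraries, with control libraries in blue, silenced libraries in red, a symbol for each replicate number, grey lines joining same-numbered libraries and black bars for the mean and SD (n = 3). TNFRSF1A and CFLAR sit higher and TNFRSF10A lower in KYSE510, and FAS is lower in the silenced library of all 6 pairs.

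The control cells of the lines were compared for the receptors they express. In KYSE510 TNFRSF1A was 2.25 times its KYSE150 level (ratio of mean RPKM) and CFLAR 2.76 times, while TNFRSF10A was at 51.2% and FAS at 69.6% of KYSE150. On the log2(RPKM + 0.5) scale the differences were 1.11 for TNFRSF1A (SE 0.13; limma adjusted p 1.5e-05), -0.95 for TNFRSF10A (SE 0.21; 0.00214) and -0.42 for FAS (SE 0.14; 0.0210). CFLAR differed by 0.82 (SE 0.10; 3.5e-05), but it reached the minimum for testing in 1 KYSE150 library (0.522 RPKM at most) and so was tested through KYSE510 alone, where it is high. Of the 7 members that reached the minimum in both lines 3 passed, where 62% of all genes tested did, so a difference between lines was the usual state of a gene. In 5 of these 7 the control libraries of the lines did not overlap, against 64% of all genes. Both shares over all genes include genes that met the minimum through 1 line alone. The call for FAS was lost without any 1 of 3 control libraries, KYSE150 replicate 3 (adjusted p 0.0704) and KYSE510 replicates 1 (0.0732) and 3 (0.0556).

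Of the other TRAIL receptors neither passed. TNFRSF10B had a difference of -0.24 (SE 0.16; limma adjusted p 0.206) and TNFRSF10D one of 0.29 (SE 0.13; 0.0741). For TNFRSF10D the call depended on the setting, with adjusted p 0.0306 after each library was centred on its median, 0.0237 with voom on recovered reads and 0.0484 without silenced replicate 2 of KYSE510 (0.0237 to 0.262 over the alternatives). RIPK1 (0.09, SE 0.07; 0.265) and TRADD (0.01, SE 0.23; 0.970) did not pass.

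The 4 TRAIL receptor genes were also taken as shares of their summed RPKM, which do not move with the scaling of a library. In KYSE150 controls TNFRSF10A held 65.3%, 65.0% and 58.3% of the sum in replicates 1, 2 and 3, and TNFRSF10B 25.03%, 26.3% and 31.7%. In KYSE510 controls TNFRSF10A held 55.2%, 41.6% and 45.4%, and TNFRSF10B 28.5%, 38.1% and 37.2%. Every control library of KYSE510 thus gave a smaller share to TNFRSF10A than any control library of KYSE150. The decoys together held 9.45% ± 0.674 in KYSE150 and 18.0% ± 2.11 in KYSE510 (SD, n = 3), nearly all of it TNFRSF10D. With silencing the decoy share was 11.01% ± 1.62 in KYSE150 and 18.7% ± 2.71 in KYSE510, ranges that overlapped those of the controls.

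**Figure D2:**
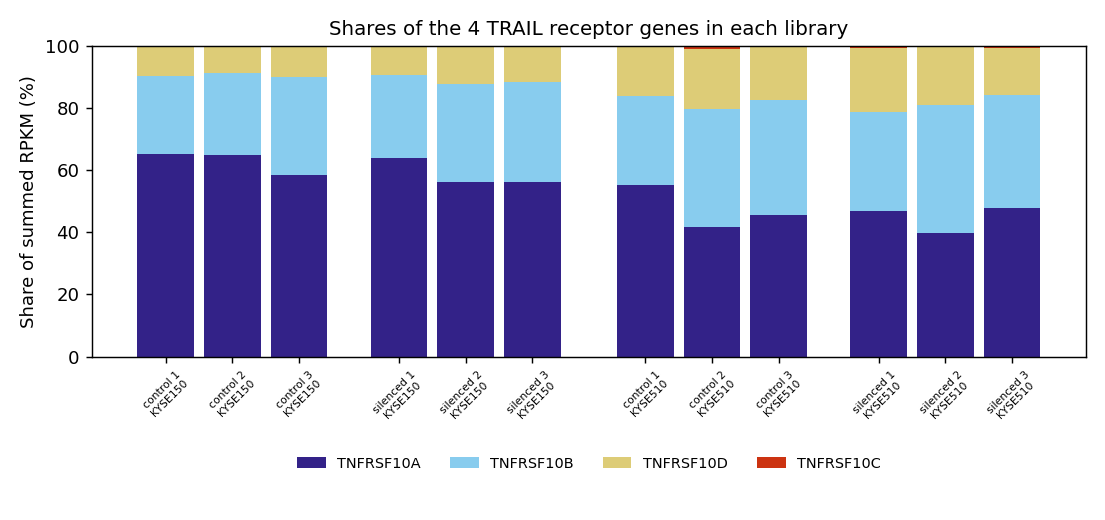
Share of the summed RPKM of the 4 TRAIL receptor genes (percent, vertical axis) in each of the 12 libraries, 1 stacked bar a library. TNFRSF10A takes 56.3% to 65.3% in KYSE150 and 39.9% to 55.2% in KYSE510, and the share of TNFRSF10C, at most 0.887%, is barely visible.

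In KYSE150 most members had higher values after silencing, as did 66.1% of all genes. The title of the series links HCP5 to apoptosis, and the comparison asks whether the receptors of the extrinsic route moved. TNFRSF1A was at 4.75, 5.96 and 6.52 RPKM in control replicates 1, 2 and 3 and at 6.87, 7.98 and 8.66 in the silenced ones. TNFRSF10B was at 6.94, 6.19 and 8.84 RPKM in controls and at 8.85, 9.14 and 10.5 after silencing. TNFRSF10D was at 2.61, 2.01 and 2.71 RPKM in controls and at 2.96, 3.47 and 3.66 after silencing. For these 3 receptors every silenced library exceeded every control, for TNFRSF10B narrowly (8.85 against 8.84 RPKM in the nearest libraries). RIPK1 also did not overlap, at 9.84, 9.58 and 9.66 RPKM in controls and 10.8, 10.2 and 9.98 after silencing.

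These 4 of 8 members without overlap stand beside 19.2% of all genes in KYSE150. The change was 0.42 for TNFRSF1A (SE 0.13; limma adjusted p 0.143), 0.36 for TNFRSF10B (SE 0.16; 0.257), 0.39 for TNFRSF10D (SE 0.13; 0.179) and 0.09 for RIPK1 (SE 0.07; 0.529) on the log2 scale. With limma 0 of 8 members passed at an adjusted p under 0.05, where 0.499% of all genes did, and 3 had an unadjusted p under 0.05, where 18.1% of all genes did. Voom on recovered reads also called 0 of 8 in each silencing comparison without the block. Replicate numbers were taken to pair the libraries, as deviations of same-numbered libraries went together in all 6 pairs. Their correlations, 0.147 to 0.415, overlapped those of libraries with other numbers (-0.385 to 0.184). The pairing was thus inferred from these data and is not stated in the titles. The block was chosen from the same values that it is used to test, so its p-values may be too small. The fit with a replicate block is given beside the fit without it. With the block TNFRSF1A (adjusted p 0.0195, with 0.00778 to 0.446 over the alternatives) and TNFRSF10B (0.0394, with 0.0158 to 0.626 over the alternatives) passed, 2 of 8 members against 6.7% of all genes. TNFRSF10D (0.0817) and TRADD (0.0707) did not pass with the block, and TNFRSF10D did with voom and the block (0.0416).

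Both blocked calls were lost without any 1 replicate number of KYSE150. With centring and the block the call of TNFRSF10B was also lost, and that of TNFRSF1A was kept narrowly. Without replicate 1, 2 or 3 of both arms of KYSE150, the blocked adjusted p was 0.0948, 0.0749 and 0.0644 for TNFRSF1A and 0.119, 0.131 and 0.0720 for TNFRSF10B. In these settings 0%, 0.251% and 0.321% of all genes passed, against 6.7% with the block on all libraries. The change was 0.39, 0.44 and 0.44 for TNFRSF1A and 0.38, 0.28 and 0.43 for TNFRSF10B. The library median was higher after silencing in each pair of KYSE150, and centring each library moved the median change of all genes from 0.08 to -0.05. Relative to that shift TNFRSF1A was higher by 0.29 (adjusted p 0.0486 with centring and the block) and TNFRSF10B by 0.23 (0.0668). Without the block, TNFRSF1A passed when control replicate 3 was left out (change 0.51, adjusted p 0.0468), a setting in which 7.31% of all genes passed.

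The remaining members in KYSE150 overlapped between groups. TRADD, the adaptor of TNFRSF1A, was at 1.98, 2.31 and 3.55 RPKM in controls and at 2.52, 3.78 and 4.06 after silencing, a change of 0.35 (SE 0.23; limma adjusted p 0.439). TNFRSF10A was at 18.1, 15.3 and 16.3 RPKM against 20.9, 16.4 and 18.4, a change of 0.16 (SE 0.21; 0.728). CFLAR was at 0.381, 0.344 and 0.420 RPKM against 0.448, 0.411 and 0.522, a change of 0.12 (SE 0.10; 0.544). In each of these 3 genes the silenced library was above the control of its own number. FAS was the single member with the opposite sign, as described below. All 8 members moved the same way in the 3 pairs of KYSE150 (7 up and FAS down), where 51.1% of all genes did. The count of members with a positive change was 7 of 8 as deposited, beside 66.1% of all genes, and 5 of 8 after centring, beside 41.1%, where RIPK1 and CFLAR changed sign. Their median change was 0.25, against 0.08 over all genes, and 0.13 against -0.05 after centring.

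In KYSE510 fewer members moved together. TNFRSF1A was at 11.5, 13.1 and 14.2 RPKM in control replicates 1, 2 and 3 and at 11.1, 11.5 and 13.1 after silencing, lower in each pair but overlapping between groups. Its change was -0.11 (SE 0.13; limma adjusted p 0.952). TNFRSF10B was at 5.34, 5.82 and 7.17 RPKM against 6.06, 5.95 and 8.19, higher in each pair, with a change of 0.13 (SE 0.16; 0.960), or -0.01 without silenced replicate 3. TNFRSF10D was at 3.03, 2.98 and 3.26 RPKM against 3.91, 2.74 and 3.45, with no common direction. Of TNFRSF10A, TRADD, RIPK1 and CFLAR none had a common direction in the 3 pairs, and their changes lay between -0.02 and 0.03. The 95% interval of the change was -0.16 to 0.15 for RIPK1, the narrowest, and -0.48 to 0.54 for TRADD, the widest, so changes of that size remain undetectable here.

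In this line 0 of 8 members passed with limma, where 0.0393% of all genes did, and 1 (FAS) had an unadjusted p under 0.05, where 6.35% of all genes did. With the replicate block 0 passed, against 0.112% of all genes. Of the members 3 of 8 moved the same way in all pairs, where 37.8% of genes did. The members' median change was 0.01, against -0.02 over all genes.

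FAS was the 1 member with lower values after silencing in both lines. In KYSE150 it was at 2.20, 2.22 and 2.61 RPKM in control replicates 1, 2 and 3 and at 1.75, 1.72 and 2.55 after silencing. In KYSE510 it was at 1.43, 1.88 and 1.58 RPKM in controls and at 0.989, 1.05 and 1.25 after silencing. The silenced library was lower in all 6 pairs, by little in replicate 3 of KYSE150. Of all genes 51.1% in KYSE150 and 37.8% in KYSE510 moved the same way in all pairs of the line. The share with 1 direction in all 6 pairs was not counted. Groups overlapped in KYSE150 and did not in KYSE510, where 1 of 8 members (FAS) and 12.1% of all genes showed no overlap.

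Mean FAS after silencing was 85.7% of control in KYSE150 and 67.3% in KYSE510. On the log2 scale FAS differed by -0.19 in KYSE150 (SE 0.14; limma adjusted p 0.471; block 0.226). For KYSE510 the figure was -0.41 (SE 0.14; limma adjusted p 0.567; block 0.175). Averaged over lines it was -0.30 (SE 0.10; limma adjusted p 0.249, unadjusted 0.0101), and with the block the adjusted p was 0.0722. Voom on recovered reads with the block gave -0.41 with an adjusted p of 0.0216, and over all alternatives it lay between that and 0.428. FAS stayed lower after silencing in both lines in every alternative run. Its change there lay between -0.34 and -0.12 in KYSE150, and in KYSE510 between -0.53 and -0.32.

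The FAS locus shares 380 exon bases, 10.1% of its exon length, with ACTA2 on the opposite strand, and the use of strand in counting is not given in the sources used here. ACTA2, the smooth muscle actin gene, was at 1.76, 1.77 and 1.29 RPKM in KYSE510 controls and at 1.16, 1.13 and 0.594 after silencing. In KYSE150 it was at 0.252, 0.409 and 0.370 RPKM against 0.217, 0.429 and 0.498. ACTA2 was thus lower with FAS in the 3 pairs of KYSE510 and in 1 pair of KYSE150. Reads of the shared bases cannot be told apart, and their part in the FAS values was not tested.

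Averaged over lines, 0 of 8 members passed with limma, where 0.539% of all genes did, and 3 (TNFRSF10B, TNFRSF10D and FAS) had an unadjusted p under 0.05, where 11.5% of all genes did. With the block 0 passed, against 2.74% of all genes. TNFRSF10B had a mean change of 0.24 (SE 0.11; limma adjusted p 0.431, and 0.0606 with the block), with the silenced library higher in all 6 pairs. The share of all genes with 1 direction in all 6 pairs was not counted. Voom with the block gave TNFRSF10B an adjusted p of 0.0138. TNFRSF10D had 0.25 (SE 0.09; 0.336, and 0.167 with the block).

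Whether the lines responded differently was tested as the difference of changes, KYSE510 minus KYSE150. It passed in 0% of all genes and in 0 of 8 members, with or without the block. TNFRSF1A had the largest size, -0.53 (SE 0.18; limma adjusted p 0.394, unadjusted 0.0125), as it was higher in 3 of 3 pairs of KYSE150 and lower in 3 of 3 pairs of KYSE510. With the block its adjusted p was 0.102, and with voom on recovered reads and the block 0.0355. The alternatives spanned 0.0355 to 0.667. The 8 differences were all negative as deposited, as were 67% of all genes. Their median was -0.23 beside -0.12 over all genes. After centring 6 of 8 were negative, where 55.8% of all genes were positive. The centred median was -0.07 for members beside 0.04 over all genes.

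**Figure D3:**
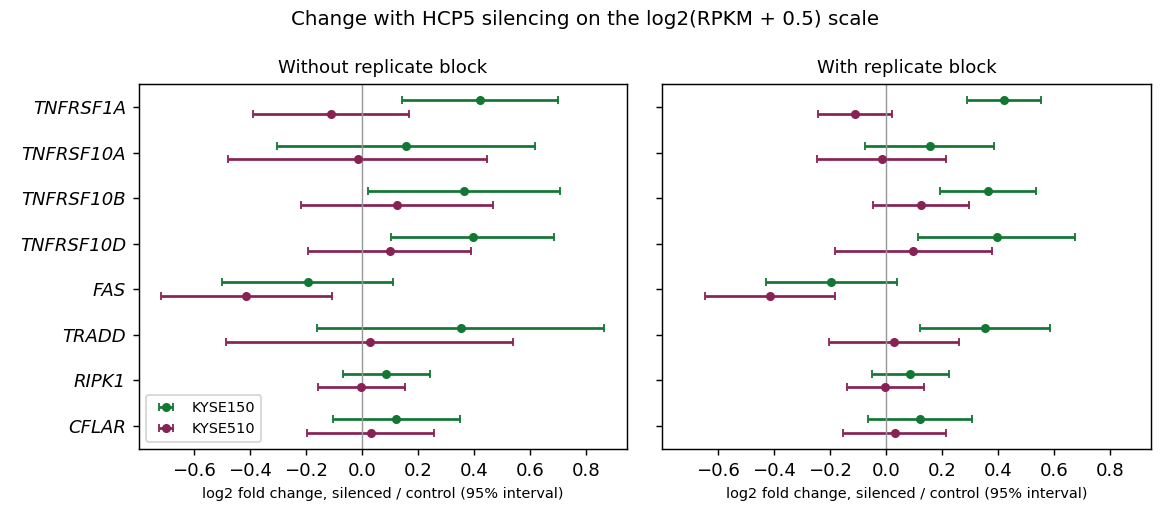
Change with silencing on the log2(RPKM + 0.5) scale for the 8 tested members (points) with 95% intervals (bars), in KYSE150 (green) and KYSE510 (purple), without the replicate block on the left and with it on the right. TNFRSF1A lies at 0.42 in KYSE150 and -0.11 in KYSE510, FAS lies below 0 in both, and the intervals are narrower with the block.

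Correlations between members ranged widely within lines. After the mean of each line was subtracted, TNFRSF10B and CFLAR had a Pearson r of 0.89 over the 12 libraries and TNFRSF10A and RIPK1 one of 0.82. TRADD had -0.58 with TNFRSF10A, -0.36 with RIPK1 and 0.11 with CFLAR, and FAS had between -0.24 and 0.19 with every other member. Replicate 3 held the highest value of TNFRSF1A, TNFRSF10B and CFLAR in 4 of 4 groups, and also the highest library median in 4 of 4 groups, so these points share library composition. The part of that in the correlations was not tested. By the same measure the genes most like TNFRSF10B were ZNF428 (0.98), PPP4R1 (0.98) and KLHL42 (0.97), and those most like FAS were MAPRE2, PPARGC1B and GID8 (0.91 to 0.92).

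The partners of the receptors were taken from a list of 39 pathway genes, of which 38 were in the table and 31 reached the minimum for testing. Of the ligands, TNF, LTA and FASLG averaged under 0.1 RPKM in every group, and TNFSF15 averaged 0.187 to 0.304. TNFSF10, the gene of TRAIL, was read 0 to 4 times per library in KYSE150, and at 1.08, 1.78 and 1.92 RPKM in KYSE510 controls and 1.60, 2.32 and 1.64 after silencing. It met the minimum through KYSE510 alone, so the comparison of lines could not fail to show it higher there, and its change with silencing in KYSE510 was 0.18 (SE 0.17; limma adjusted p 0.944).

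TRAF5 (at most 0.197 RPKM in KYSE150) and CASP10 (at most 0.493) also met the minimum through KYSE510 alone. Between control lines 12 of the other 28 pathway genes were higher in KYSE510 and 9 lower (75% in all, where 62% of all genes passed). Their median difference was 0.26, against -0.07 over all genes. The share and median over all genes include genes that met the minimum through 1 line alone. FADD, which links FAS and the TRAIL receptors to caspase-8, was at 34.2 ± 2.73 RPKM in KYSE150 and 104 ± 2.22 in KYSE510 (SD, n = 3), a difference of 1.59 (SE 0.08; limma adjusted p 2.2e-08). CASP8, the initiator caspase, was at 1.81 ± 0.110 against 5.999 ± 0.178 RPKM, a difference of 1.496 (SE 0.08; 3.4e-08). The ratio of CFLAR to CASP8 RPKM was 0.213 ± 0.0332 in KYSE150 controls and 0.176 ± 0.0162 in KYSE510 controls (SD, n = 3), overlapping ranges, since both genes were higher in KYSE510. As the RPKM of CFLAR depends on its annotation, the size of this ratio does not give the ratio of transcripts.

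Other receptors with a death domain also differed. TNFRSF21 (DR6) was at 7.69 RPKM in KYSE150 and 23.7 in KYSE510 (1.58, SE 0.17; limma adjusted p 1.1e-05), and NGFR, the p75 neurotrophin receptor, was higher by 1.19 (SE 0.29; 0.00376). TNFRSF25 (DR3), the other one tested, was lower (-0.63, SE 0.23; limma adjusted p 0.0323). In the TNFRSF1A complex 6 of 11 genes passed as higher and 4 as lower, where 62% of all genes passed. TRAF5 is among the 6, and as it met the minimum through KYSE510 alone, it could not fail to be higher there. IKBKG, the regulatory subunit of the IkappaB kinase, was higher by 1.09 (SE 0.09; limma adjusted p 1.2e-06), and TRAF5 was at 0.150 RPKM in KYSE150 and 0.955 in KYSE510. CYLD, a deubiquitinase that opposes NF-kappaB signalling, was at 3.01 RPKM in KYSE150 and 0.520 in KYSE510 (-1.78, SE 0.09; limma adjusted p 2.1e-08). RBCK1, a subunit of the linear ubiquitin ligase, was higher by 0.66 (SE 0.12). MLKL, the executioner of necroptosis, was lower by 0.77 on the log2 scale (-0.77, SE 0.11), and BID, which carries the caspase-8 signal to mitochondria, was higher by 0.85 (SE 0.16).

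**Figure D4:**
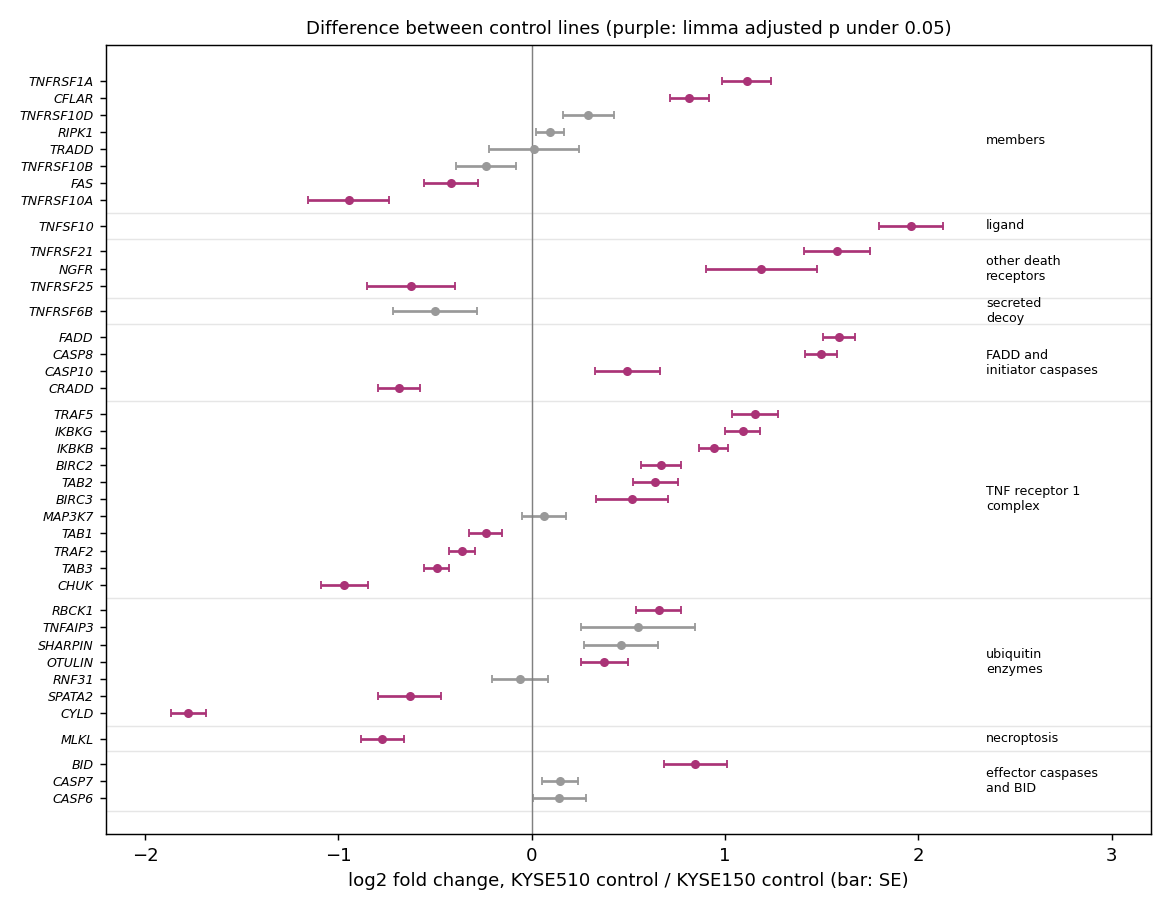
Difference between control KYSE510 and control KYSE150 (log2 fold change, horizontal axis; bars are SE) for the 8 tested members and the 31 tested pathway genes, grouped by role, in purple where the limma adjusted p was under 0.05. FADD (1.59), CASP8 (1.496) and TNFRSF1A (1.11) lie to the right, and CYLD (-1.78) and TNFRSF10A (-0.95) to the left. CFLAR, TNFSF10, TRAF5 and CASP10 were tested through KYSE510 alone.

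With silencing 0 of the 31 pathway genes passed in either line with limma, where 0.499% of all genes in KYSE150 and 0.0393% in KYSE510 did. An unadjusted p under 0.05 was found for 5 in KYSE150 and 1 in KYSE510, where 18.1% and 6.35% of all genes had one. With the block 3 rose in KYSE150 (9.68%, where 6.7% of all genes passed) and 0 fell. In KYSE510 0 passed, where 0.112% of all genes did. FADD was at 34.8, 31.2 and 36.5 RPKM in KYSE150 controls and at 40.8, 42.2 and 44.1 after silencing (0.31, SE 0.08; limma adjusted p 0.112, and 0.0479 with the block). CYLD was at 3.16, 2.64 and 3.21 RPKM against 3.94, 3.75 and 4.005 (0.33, SE 0.09; 0.122, and 0.0445 with the block). In both genes the groups did not overlap. Relative to the median of all genes (centred libraries) FADD was higher by 0.18 and CYLD by 0.20, and with centring and the block neither passed (limma adjusted p 0.156 and 0.111).

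TNFAIP3, the gene of the ubiquitin-editing enzyme A20, was at 4.03, 1.75 and 3.17 RPKM against 5.83, 2.81 and 3.94 (0.44, SE 0.29; limma adjusted p 0.444, and 0.0314 with the block), so pairs moved together while groups overlapped. With centring and the block TNFAIP3 did not pass either (0.31; 0.0592). TNFAIP3 was also the 1 of 31 pathway genes that passed for the mean over lines with the block, where 2.74% of all genes did. Its mean change was 0.30, with a limma adjusted p of 0.0382, and 0.0577 with centring as well. CASP8 did not pass in KYSE150 (0.02, SE 0.08; limma adjusted p 0.952) or KYSE510 (-0.02, SE 0.08; 0.995), and its control and silenced libraries overlapped. In KYSE150 24 of 31 pathway genes had a positive change, beside 66.1% of all genes, and 16 of 31 after centring, beside 41.1%, where their median was 0.0043 against -0.05 over all genes.

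**Figure D5:**
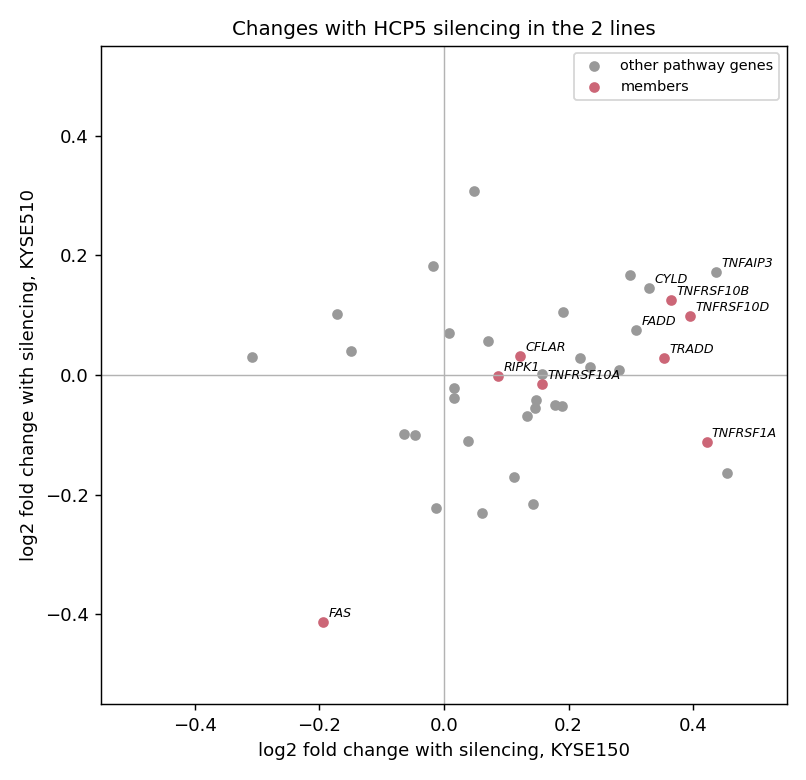
Change with silencing in KYSE150 (horizontal axis) and KYSE510 (vertical axis), both as log2 fold change, for the 8 tested members (red) and the 31 tested pathway genes (grey). FAS is the 1 member at the lower left (-0.19 and -0.41), and TNFRSF1A is the member with a positive change in KYSE150 (0.42) and the most negative among those in KYSE510 (-0.11).

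The promoters of FAS and TNFRSF1A are shown for the directions of their changes. FAS had lower values with silencing in both lines, and TNFRSF1A had changes of opposite sign between lines. TNFRSF10A and RIPK1 also had opposite signs, with smaller changes in KYSE510 (-0.02 and -0.002). Neither FAS nor TNFRSF1A passed with limma without the block in a silencing comparison of all libraries. The sequences are from RefSeq on GRCh38.p14, from 250 bases before the RefSeq start of the gene to 50 after. This start differs from that of the deposited positions. FAS starts at 88990582 there, so most of its window lies inside the gene as counted. Of the 9 members 4 (TNFRSF1A, FAS, RIPK1 and CFLAR) matched the promoter table. Capitals mark any match, on either strand, to the MYC and MAX E-box CACGTG, the GC box GGGCGG, the CCAAT box (CCAAT) or the TATA box TATAAA.

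FAS, chr10:88990548-88990847, plus strand: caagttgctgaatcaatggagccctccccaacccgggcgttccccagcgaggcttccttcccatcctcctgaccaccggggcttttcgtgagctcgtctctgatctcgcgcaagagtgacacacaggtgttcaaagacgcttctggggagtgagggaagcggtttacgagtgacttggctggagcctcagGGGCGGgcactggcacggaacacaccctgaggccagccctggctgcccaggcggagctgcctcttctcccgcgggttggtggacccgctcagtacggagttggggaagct

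TNFRSF1A, chr12:6342027-6342326, minus strand: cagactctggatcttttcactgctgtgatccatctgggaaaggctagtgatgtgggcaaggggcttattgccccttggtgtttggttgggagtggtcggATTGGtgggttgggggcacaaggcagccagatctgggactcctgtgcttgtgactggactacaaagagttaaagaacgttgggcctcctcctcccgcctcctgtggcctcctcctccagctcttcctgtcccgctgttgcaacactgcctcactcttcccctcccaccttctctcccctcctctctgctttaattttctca

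The E-box was found in 0 of the 4 promoters, and in 7.26% of 35116 promoters of the same length. The GC box was in 3 of 4 (FAS, RIPK1 and CFLAR), against 45% of promoters. In FAS it begins 60 bases before the start. The CCAAT box was in 2 of 4, TNFRSF1A (opposite the strand printed, as ATTGG, 151 bases before the start) and RIPK1, against 34.6%, and the TATA box in 1 of 4, RIPK1, against 11.5%. FAS and TNFRSF1A hold 1 match each, so no motifs overlap in the sequences shown. These matches describe the letters of the window only.

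By position in the deposited table (GRCh38), TNFRSF10B (23020133 to 23069179), TNFRSF10C (23084355 to 23117437), TNFRSF10D (23135588 to 23164030) and TNFRSF10A (23190452 to 23225126) lie side by side on chromosome 8. TNFRSF10C is on the plus strand and the other three on the minus strand. These neighbours differed in level, from 0.0601 RPKM for TNFRSF10C to 16.6 for TNFRSF10A in KYSE150 controls. FAS lies on chromosome 10 (88990582 to 89015785, plus strand, 10 merged exons) and TNFRSF1A on chromosome 12 (6328757 to 6342114, minus strand, 8 merged exons). TRADD is on chromosome 16 (67154180 to 67160298, minus strand), RIPK1 on chromosome 6 (3063991 to 3115187, plus strand) and CFLAR on chromosome 2 (201116104 to 201176687, plus strand).

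Exons of other members are shared with genes on the opposite strand as well, which leaves part of their reads uncertain. TNFRSF10A shares 224 bases with RP11-1149O23.2 and 266 with RP11-1149O23.3, TNFRSF10B 67 with RHOBTB2, TRADD 126 with FBXL8 and RIPK1 238 with a further gene. CFLAR shares 1488 bases with IMPDH1P10 and 777 with CFLAR-AS1, and 445 with AC007283.5 on its own strand. TNFRSF1A, TNFRSF10C and TNFRSF10D share none. The 4 TRAIL receptor genes are related in sequence, so reads of shared stretches could be split or lost between them. Libraries hold RNA of many cells, so fewer cells with a transcript and less transcript per cell cannot be told apart.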

How the data were processed

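RNA of KYSE150 and KYSE510 cells was sequenced in 12 libraries, 3 in each of 4 groups taken from the labels, with replicate numbers from the titles. Per the submitters' processing notes, HISAT2 and DESeq were used with GRCh38; their roles and versions, the annotation release and the use of strand are not given in the sources used here. The deposited RPKM were made by the authors, and per the file headers the table also holds gene positions and exon lengths. RPKM multiplied by exon length was a whole multiple of 1 step (within 0.05 reads) for 100% of values, and the implied total equalled the summed reads in 12 of 12 libraries, so reads were recovered. Depth ran from 20035025 to 28202422 reads, and arguments from low counts cover counting error only.

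The 17823 genes that reached an RPKM of 0.5 in 3 or more libraries were tested on log2(RPKM + 0.5) with limma 3.58.1 in R 4.3.3 (4 group means over 12 libraries, eBayes with trend, 8 residual degrees of freedom), two-sided, with Benjamini-Hochberg adjustment over all genes tested and a threshold of 0.05. Fold changes on this scale understate low genes. Intervals are limma's at 95%. The scripts were tested on simulated data. Same-numbered control and silenced libraries correlated in their deviations from group means at 0.147 to 0.415 (others -0.385 to 0.184), so the numbers, which come from the titles, were taken to pair libraries; the fit with the block has 4 residual degrees of freedom. Alternatives were pseudocounts of 0.1 and 1, no filter, centring each library on its median, voom on recovered reads with factors from a trimmed mean of M values, the block, the 6 libraries compared, and leaving out each library. Centring with the block, and the block without 1 replicate number of KYSE150, were chosen after seeing the data.

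The members, the pathway list and the rules were chosen with earlier results of these data known. Named are all members; FADD, CASP8 and TNFSF10; pathway genes past the threshold with silencing, with or without the block; up to 2 per role between lines; and the 3 genes most correlated with FAS and with TNFRSF10B. The overlap partners of exons, such as ACTA2, and TNFRSF25 and CASP10 were named after their values were seen. RIPK3 was listed and is not analysed here. A further gene of that list is not reported here, and it is left out of the counts of the list.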

Additional observations from a re-analysis of the deposited data

How the results depend on the processing

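With the replicate block 2 of 8 members passed in KYSE150 (6.7% of all genes), against 0 without it (0.499%), 3 with voom on recovered reads and the block (14.6%), and 1 with centred libraries and the block (4.76%). Voom with the block also called 2 members for the mean over lines (6.81% of all genes) and 1 for the difference between lines (3.77%), each 0 otherwise. Leaving out 1 library gave 0 to 1 members in KYSE150, where 0.085% to 7.31% of all genes passed. The 1 call came without KYSE150 control replicate 3, the setting with 7.31%. Centring and the block together, and the block without 1 replicate number of KYSE150, were chosen after seeing the data. The block changed no other call of a member. Pseudocounts of 0.1 and 1 and no filter changed no call or direction of a member. Nor did fitting the 6 libraries compared, which was run for each line and for the control lines, without CFLAR in KYSE150, where it missed the minimum.

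Directions changed only for small log2 changes that passed no test. With centred libraries, with or without the block, the change was -0.0431 for RIPK1 and -0.00758 for CFLAR in KYSE150, 0.0106 for TNFRSF10A and 0.0236 for RIPK1 in KYSE510, -0.00973 for RIPK1 in the mean, and 0.0667 for RIPK1 and 0.0647 for CFLAR in the difference between lines. With voom it was 0.0397 for TNFRSF10A and 0.0374 for RIPK1 in KYSE510 and 0.0243 for RIPK1 in the difference, and with voom and the block 0.0312, 0.0368 and 0.0244. Leaving out 1 library moved the change in KYSE510 from -0.201 to 0.221 for TNFRSF10A, -0.0143 to 0.237 for TNFRSF10B, -0.00181 to 0.2199 for TNFRSF10D, -0.153 to 0.187 for TRADD, -0.0447 to 0.0588 for RIPK1 and -0.0265 to 0.0905 for CFLAR. For TNFRSF10A it moved the mean from -0.0222 to 0.189 and the difference from -0.358 to 0.0644, and for TRADD the difference between control lines from -0.148 to 0.217. The causes were not tested. With 3 libraries a group and 83 to 258 reads for FAS, modest changes of the low genes cannot be detected at this depth.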
